A study of Arabidopsis thaliana with 79 samples.

Results

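The root endodermis line of this series carries the promoter of SCARECROW (pSCR) in front of an epitope-tagged ribosomal protein, His6-FLAG-RPL18B. Messenger RNA bound to the tagged ribosomes, called polysomal RNA here, was pulled down from whole root extracts and measured on Affymetrix ATH1 arrays. The comparison was set by labels alone: the 2 root pSCR arrays in air were set against the mean of the group means of 8 other root promoter lines in air, which hold 17 arrays. These 19 arrays belong to a series of 79 arrays, 47 of them from roots. The other lines carry the same tag under pSHR and pWOL (stele), pGL2 (non-hair epidermis), pSUC2 and pSultr2;2 (phloem), pCO2 and pPEP (cortex) and pRPL11C (dividing cells). The labels name only the promoters, so these cell types come from general knowledge of them. The near-ubiquitous 35S line (p35S) and total RNA were left out of the comparison. Both pSCR arrays and all arrays of the other lines came from 7-day-old Col-0 seedlings grown at 23 °C under 16 h of light, held in air for 2 h at low light and dissected into roots and shoots. The pGL2 group holds 3 arrays and every other group of the comparison 2. The hypoxia arrays used further down come from seedlings of the same lines kept in argon for 2 h, again with 2 arrays of pSCR. Replicates are described in the labels as independent biological experiments. How many transformed lines stand behind each promoter is not given in the sources used here.

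The endodermis is the innermost cortical cell layer around the stele. Its cells lay down the Casparian strip, a lignin ring in the wall that seals the space between cells, and later suberin, a waxy polyester, so that water and ions must cross a living membrane. The receptor kinase GSO1 senses breaks in the strip, and peroxidases and dirigent proteins take part in depositing its lignin. The transcription factors SHORTROOT and SCARECROW specify the layer. The SCARECROW promoter is also active in the quiescent centre and in the stem cells that give rise to cortex and endodermis.

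The values are log2 signals of 22746 probe sets, and a difference of 1 is a 2-fold difference. Array medians lay between 6.31 and 6.64. Of these probe sets 13513 carry the name of 1 gene, and only those are named here. Many well-known genes of the endodermis have no named probe set in the annotation used. Where the annotation gives only a locus identifier, family membership or role comes from general knowledge of that Arabidopsis locus. The 2 pSCR arrays correlated at 0.986 over all probe sets, and those of the other lines had lowest correlations from 0.975 (pPEP) to 0.993 (pWOL). A difference between lines can come from more cells of a type or from more RNA per cell, and bulk polysomal RNA cannot tell these apart.

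GSO1, the receptor kinase given as marker of the endodermis, was highest in the pSCR line. Its log2 signal was 10.10 and 10.34 in the 2 pSCR arrays, against a lowest of 7.17, a median of 7.82 and a highest of 9.32 in the 17 arrays of the other lines. Both pSCR arrays lay above all others. The difference was 2.28 ± 0.21 (SE, adjusted p 4.59e-12), a 4.84-fold excess. The next line was pPEP, with a group mean of 9.17, and pSCR exceeded it by 1.05, while the remaining lines stood between 7.59 and 8.05.

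Calls needed an adjusted p under 0.05 in limma together with a difference of at least 1 on the log2 scale. By this rule 543 probe sets (2.39% of those tested) were higher in pSCR and 545 (2.4%) were lower. Among the 543 higher ones, 284 carry 1 gene, and so do 286 of the 545 lower ones. The median difference was 1.58 for the higher and −1.33 for the lower set, beside −0.01 over all probe sets. The direction was sharper for the higher set: both pSCR arrays lay above all 17 others in 426 of the 543, and below all others in 193 of the 545 lower ones. Without regard to the test, pSCR lay above all 17 arrays in 663 probe sets (2.91%) and below all in 390 (1.71%). Replicate 2 of pSCR exceeded replicate 1 in 463 of the 543 higher probe sets, by a median of 0.49, while the same median over all probe sets was −0.01. Without replicate 1 the higher count was 681, and without replicate 2 it was 442.

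**Figure D1:**
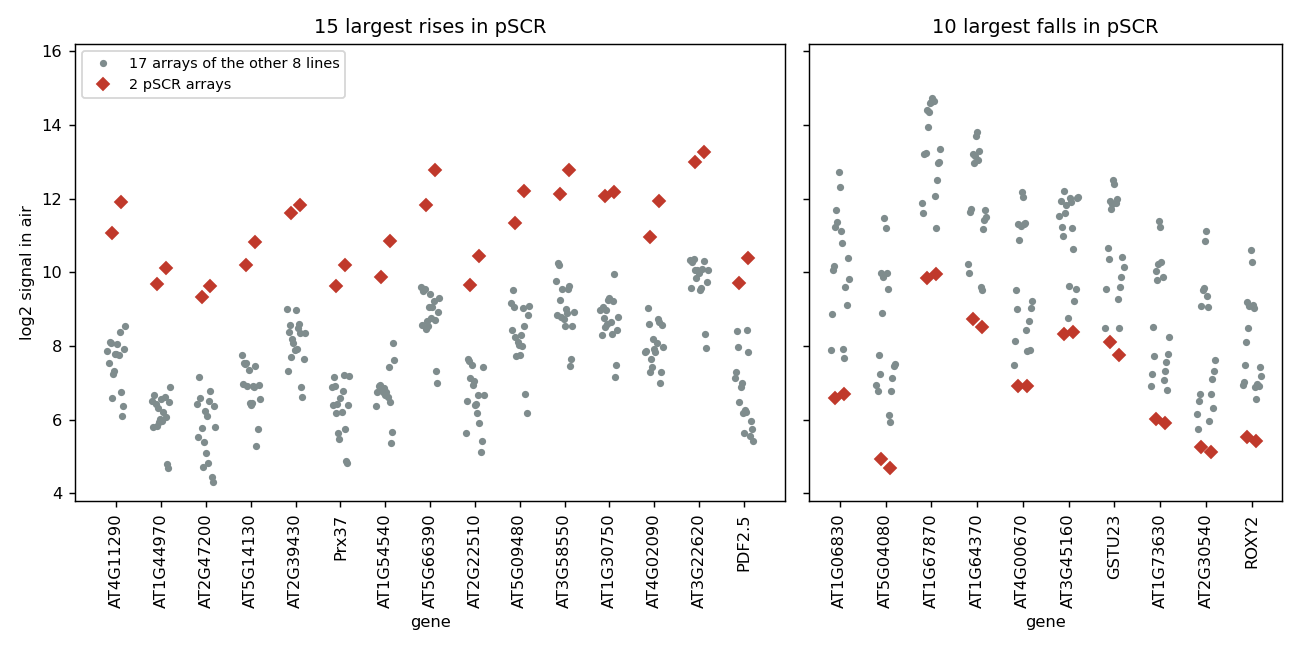
Log2 signal in air (vertical axis) of the 15 genes with the largest rises (left) and the 10 with the largest falls (right) in pSCR. Red diamonds are the 2 pSCR arrays and grey points the 17 arrays of the other 8 lines. The diamonds lie outside the grey points for every gene, as the rule that picked these genes required, and the falls show a wider spread among the other lines than the rises.

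Among the 15 largest rises were 3 genes of Casparian strip formation, all of them peroxidases. Of 22 listed genes 6 had a named probe set. Of these 5 (83.3%) rose and 1 (16.7%) fell, against 2.39% and 2.4% of all probe sets. The list, which includes GSO1, was chosen with earlier results of these data known, so its counts are a description. The median difference was 3.10 beside −0.01 over all probe sets. The 5 were also called against each of the 8 lines one by one. AT1G61590, a receptor-like cytoplasmic kinase that acts downstream of GSO1, gave 10.64 and 11.30 in pSCR against 7.60 to 8.90 (median 8.15) elsewhere, a rise of 2.72 ± 0.20 (adjusted p 1.33e-15). The other lines hardly differed from one another for this gene, with an SD of 0.27 over the 8 line means. The other 3 risen members are peroxidases. AT4G11290 gave 11.07 and 11.92 against 6.09 to 8.54 (median 7.78), a 15.2-fold excess (3.93 ± 0.26, adjusted p 1.07e-16) and the largest rise among all probe sets. AT1G44970 gave 9.69 and 10.12 against 4.70 to 6.88 (median 6.20), a rise of 3.79 ± 0.20. AT5G66390, listed in the annotation as PRX72, reached 11.84 and 12.77 against 6.99 to 9.60 (median 8.93), a rise of 3.48 ± 0.24.

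The single fall in the same list was AT4G34600, which encodes the precursor of a peptide that activates GSO1 and that is known to be made in the stele. Its 2 pSCR arrays read 7.35 and 7.55, while the 17 others ran from 6.90 to 11.03 with a median of 9.58. The difference was −2.07 ± 0.21 (adjusted p 4.54e-11), and pSCR was called lower against 7 of the 8 lines. The pPEP line stood at the same low level, with a mean of 7.27, and the pSUC2 line was highest at 10.89. GSO1 had a mean of 7.86 in pSUC2, close to its level in the lines other than pSCR and pPEP. So receptor was high and peptide precursor low in pSCR and pPEP, but GSO1 was nearly flat over the remaining lines. For AT4G34600 the epidermal pGL2 line (10.38, 9.93 and 10.33) lay above the stele lines pSHR (9.54 and 9.34) and pWOL (9.73 and 8.94). All 6 calls held without either pSCR array.

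**Figure D2:**
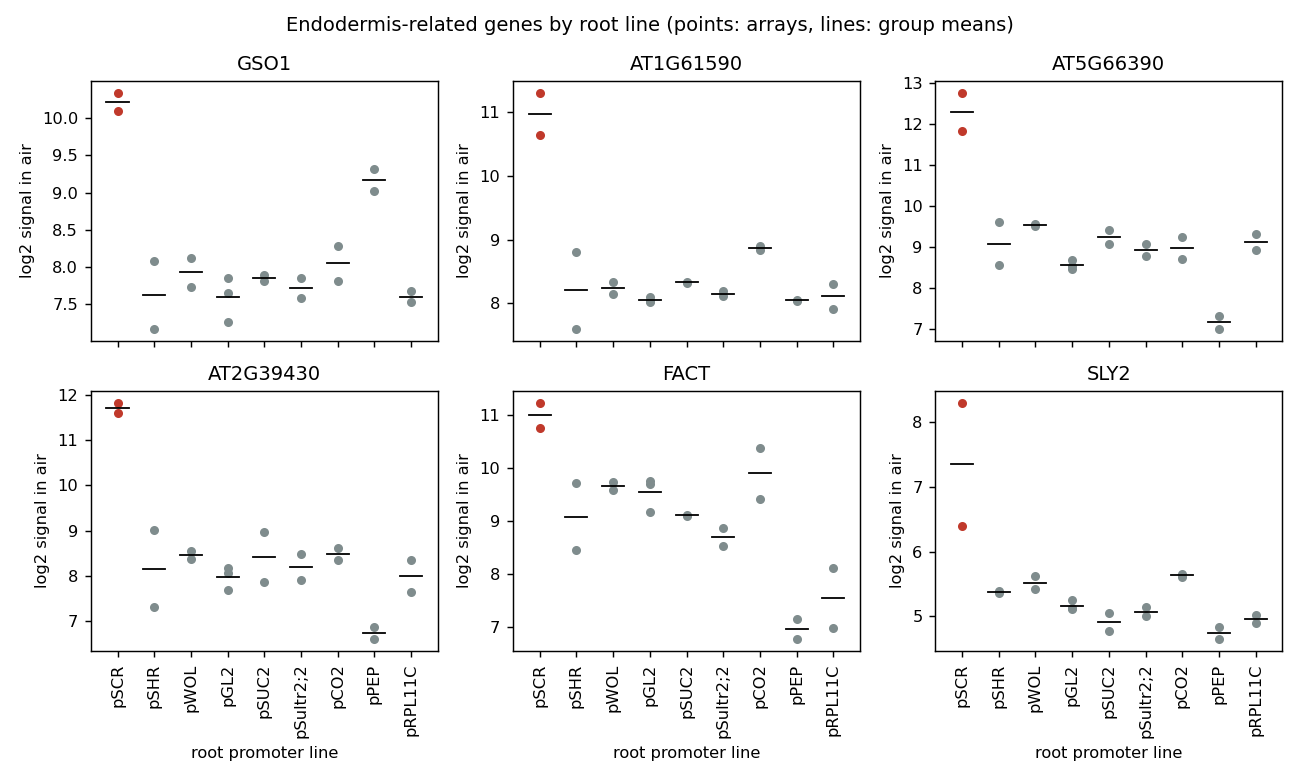
Log2 signal in air of 6 endodermis-related genes in the 9 root promoter lines. Points are arrays (red for pSCR, grey for others) and black lines are group means. The pSCR line is highest in all 6 panels, pPEP comes second for GSO1 and lowest for AT5G66390, AT2G39430, FACT and SLY2, and the 2 SLY2 arrays of pSCR lie far apart.

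Class III peroxidases, secreted enzymes that oxidise lignin precursors, were followed as a family of 73 listed loci. The list was drawn up with earlier results of these data known, so its counts are a description. Of 55 measured, 10 (18.2%) rose and 3 fell, against 2.39% and 2.4% of all probe sets. The family's median difference was 0.04, so most members did not pass the test. The rises fell into a strong and a weak group. Besides the 3 Casparian strip members, AT5G14130 gave 10.19 and 10.82 against 5.29 to 7.77 (3.66 ± 0.21), and Prx37 gave 9.63 and 10.19 against 4.82 to 7.22 (3.61 ± 0.24). AT1G68850 rose by 3.09 ± 0.23, from a mean of 8.18 in the other lines to 10.86 and 11.69. AT2G35380 rose by 2.66 ± 0.23, with 10.88 and 11.83 in pSCR. These 7 had both pSCR arrays above all others and were called against all 8 lines, as was the weaker AT4G16270.

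The weaker peroxidase rises were AT4G16270 at 1.49 ± 0.18 (7.09 and 7.18 against 5.34 to 6.20), AT5G06730 at 1.40 ± 0.18 and AT4G36430 at 1.13 ± 0.23. AT5G06730 was dim, at 5.51 and 6.69 in pSCR. Adding 50 to linear values, which shrinks differences of dim probe sets, put all 3 under the size limit, at 0.93, 0.66 and 0.84. AT4G36430 was not highest in pSCR: its mean was 8.62 in pRPL11C and 7.96 in pSCR. Without pSCR replicate 2, AT5G06730 (0.81) and AT4G36430 (0.77) were no longer called, which leaves 8 rises. The 3 falls were small. PRXR1, the brightest measured member in pSCR, gave 12.43 and 12.85 against 12.68 to 14.39 (−1.20 ± 0.21). AT2G22420 was at −1.08 ± 0.24 and AT1G71695 at −1.02 ± 0.28, both highest in pSUC2, and the arrays of pSCR overlapped the others in all 3. None of the 3 falls was called without pSCR replicate 1, and AT1G71695 was not called without replicate 2.

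Dirigent proteins, which guide the coupling of lignin and lignan precursors, showed the same split between a few high members and a flat rest. This list too was drawn up with earlier results of these data known, so its counts are a description. Of 24 listed loci 14 were measured. Of these 5 (35.7%) rose and 0 fell, against 2.39% and 2.4% of all probe sets, and the median difference was 0.32. AT2G39430 gave 11.60 and 11.82 against 6.61 to 9.01 (median 8.19), a 12.6-fold excess (3.65 ± 0.35, adjusted p 7.10e-12). AT4G13580 gave 13.23 and 13.11 against 8.59 to 10.75, a rise of 3.24 ± 0.32. AT2G21100 gave 11.74 and 12.38 against 7.23 to 9.86, a rise of 3.15 ± 0.20. For these genes the pPEP mean was the lowest of the 9 lines, at 6.75, 8.63 and 7.30. AT4G11190 had the highest signal of the family in pSCR, 13.64 and 13.92, but also 12.37 in pWOL and 12.10 in pRPL11C, so its rise was 2.63 ± 0.19. The fifth, AT4G11210, differed in pattern: it rose by 1.12 ± 0.24 over the mean, but pSHR stood above pSCR at 9.54 against 9.19, and it was not called without pSCR replicate 1 (0.95, adjusted p 0.0632).

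**Figure D3:**
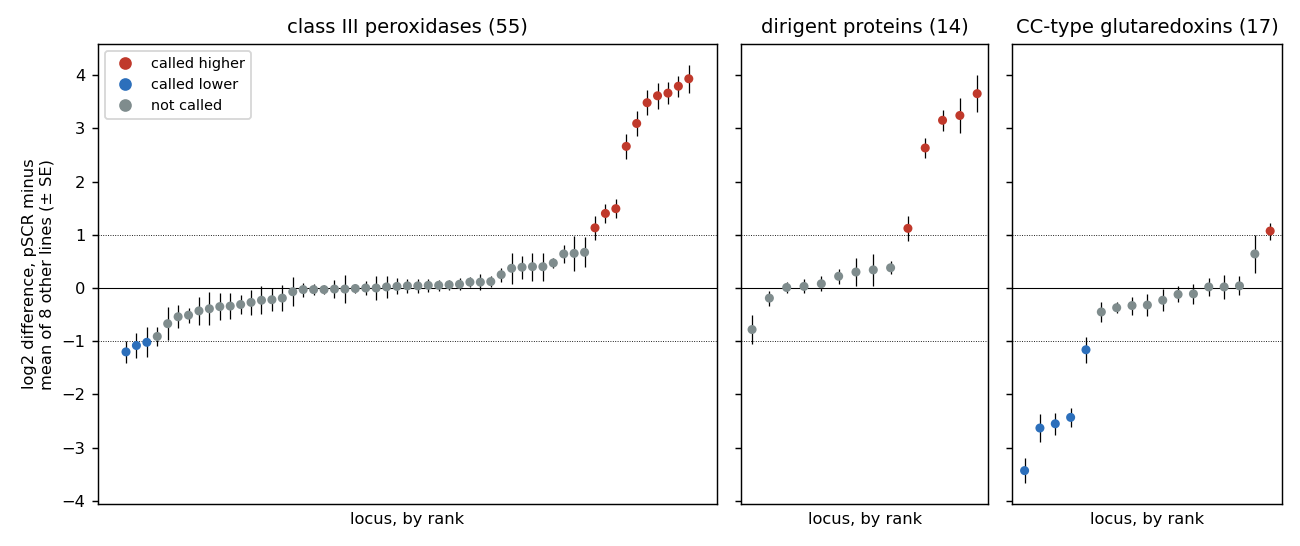
Log2 difference between pSCR and the mean of the 8 other lines in air (points, with bars of 1 SE) for 55 class III peroxidases, 14 dirigent loci and 17 CC-type glutaredoxins, each ordered by size. Red points were called higher, blue points lower, grey points not called, and dotted lines mark a difference of 1. Peroxidases and dirigent loci have a tail of large rises above a flat majority, and glutaredoxins a tail of large falls.

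The rest of the 15 largest rises belong to neither family. AT2G47200 gave 9.32 and 9.63 in pSCR against 4.32 to 7.17 elsewhere, a rise of 3.67 ± 0.27. AT1G54540 rose by 3.61 ± 0.21, AT2G22510 by 3.48 ± 0.33 and AT5G09480 by 3.48 ± 0.23. AT3G58550, AT1G30750, AT4G02090 and AT3G22620 rose by 3.37 to 3.43. AT3G22620 was the brightest of these, at 12.99 and 13.26 against 7.94 to 10.36. PDF2.5, a member of the plant defensin family of small cysteine-rich peptides, gave 9.72 and 10.40 against 5.42 to 8.44 (3.33 ± 0.20). Its level among the other lines was spread widely, from 5.59 in pRPL11C to 8.19 in pWOL and 8.14 in pCO2.

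How far a gene stood above its nearest neighbour line gave a slightly different order. AT4G11290, AT2G39430 and AT1G44970 exceeded even their second-highest line by 3.27, 3.23 and 3.22. AT5G14130 followed at 2.97, and Prx37, AT3G22620 and AT5G66390 at 2.77 to 2.86. AT4G02090, AT5G51680 and AT2G47200 completed this group at 2.60 to 2.63. AT5G51680 had arrays of 9.08 and 10.26 against 5.89 to 7.11, with an SD of only 0.31 over the other line means. The second-highest line of these genes was pWOL, pRPL11C or pCO2 in every case.

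Members of the SHORTROOT and SCARECROW network were weaker but ran one way. Of 14 listed genes 6 were measured. Of these 3 rose and 0 fell, against 2.39% and 2.4% of all probe sets, and the median was 1.04. The network list too was chosen with earlier results of these data known, so its counts are a description. The pSCR line had the highest mean of the 9 lines in 6 of 6, beside 2487 of all probe sets (10.9%). The lead over pPEP was slight for JKD, with values further down, and for the dim AT3G45260. AT3G45260 gave 4.71 and 5.10 in pSCR and 5.01 and 4.69 in pPEP. SLY2, also named SNEEZY, encodes an F-box protein related to the gibberellin signalling factor SLEEPY1. It gave 6.40 and 8.30 against 4.65 to 5.66, a rise of 2.18 ± 0.20. Its 2 arrays differed by more than in any other gene described here, and its rise was 1.23 without replicate 2 and 3.13 without replicate 1. AT4G28100 rose by 1.30 ± 0.17 (8.65 and 9.28 against 6.97 to 8.10), and AT1G14580, a zinc finger gene, by 1.25 ± 0.13 (6.61 and 7.15 against 5.36 to 5.91). Without replicate 2 both stood at 0.98, under the size limit. With 50 added to linear values AT1G14580 was at 0.76, also under it.

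The zinc finger gene JKD, whose protein restricts SHORTROOT movement, gave 7.68 and 8.03 in pSCR and did not pass the size limit (0.83 ± 0.20, adjusted p 0.00199), though it reached 1.00 without replicate 1. Its pPEP mean of 7.84 was almost the same as the pSCR mean of 7.86. AT5G41920, a SCARECROW relative named SCL23 in the annotation, differed by 0.55 ± 0.14 and AT3G45260 by 0.37 ± 0.15, neither called. In the list of quiescent centre and stem cell genes, both measured members of 8 rose, against 2.39% of all probe sets. That list was also chosen with earlier results of these data known, so the count is a description. BBM, a transcription factor of the root stem cell niche, gave 6.04 and 6.33 against 4.39 to 5.89 (1.17 ± 0.16). AGL42 gave 5.62 and 6.76 against 4.60 to 5.63 (1.13 ± 0.25), and was not called without replicate 2 (0.56). Both genes had pSCR means of 6.18 and 6.19, below every array median, so their differences rest on dim probe sets.

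For suberin, 1 of 23 listed genes was measured. FACT, an acyltransferase that attaches caffeic acid to fatty alcohols of suberin waxes, gave 10.75 and 11.22 against 6.78 to 10.38 (median 9.11), a rise of 2.17 ± 0.30 (adjusted p 1.96e-07). The neighbouring pCO2 line reached 9.90, pPEP was lowest at 6.96, and the test passed against 7 of the 8 lines. In lignin precursor synthesis, HCT alone of 16 genes was measured, at 11.10 and 11.85 against 10.81 to 12.87, a difference of −0.22 ± 0.22 that was not called. LAC16, the only laccase found by name, rose by 1.72 ± 0.14, at 6.92 and 7.10 against 5.02 to 5.80. UGT72E3, a glucosyltransferase of monolignols, gave 10.61 and 11.14 against 7.03 to 9.79 (2.85 ± 0.22). Its second line was pPEP with a mean of 9.57, as for GSO1. Of 51 measured UDP-glycosyltransferases, 3 (5.88%) rose and 1 (1.96%) fell, against 2.39% and 2.4% of all probe sets, at a median of −0.01. The counts are too close to these shares to be a result about the family. The others were UGT74D1 (1.20), UGT71C3 (1.06, not called without replicate 2) and the fallen UGT73B5 (−1.05, also not called without replicate 2).

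Of 29 measured expansins and xyloglucan endotransglucosylases, which loosen or remodel walls, 2 (6.9%) rose and 3 (10.3%) fell, against 2.39% and 2.4% of all probe sets, with a median of 0.00. So few members were called that the counts describe single genes rather than the family. XTH16 gave 9.65 and 9.57 against 5.43 to 7.38, a rise of 3.23 ± 0.21, and EXLA1 rose by 1.71 ± 0.20. XTH20 gave 6.09 and 6.12 in pSCR and fell by 2.03 on the log2 scale (SE 0.24), with pSUC2 equally low at 6.07 and pRPL11C at 9.47. EXPB3 fell by 1.98 (SE 0.33). EXPA4 was at −1.48 ± 0.43, and was not called without either pSCR array (adjusted p 0.14 and 0.143). Among 12 measured nitrate and peptide transporters, AT3G21670 (NPF6.4) gave 9.41 in both pSCR arrays against 6.53 to 8.27 (2.00 ± 0.21), and AT1G68570 (NPF3.1) rose by 1.58 ± 0.19. With 50 added to linear values AT1G68570 was at 0.89, under the size limit. GTR2, a glucosinolate transporter, was at −1.53 ± 0.34, highest in pSUC2 at 11.72, and not called without replicate 2. Of the 12 transporters 2 (16.7%) rose and 1 (8.33%) fell, against 2.39% and 2.4% of all probe sets, at a median of −0.03. So few calls describe single genes. Of 19 measured CYP71B cytochrome P450 genes 1 (5.26%) rose and 0 fell, against 2.39% and 2.4% of all probe sets. The riser was CYP71B37 at 1.08 ± 0.23, and at 0.79, under the size limit, without replicate 2. Of 7 WRKY factors 0 were called.

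The largest falls formed a group with a common profile. AT1G06830, a CC-type glutaredoxin, gave 6.60 and 6.70 in pSCR against 7.67 to 12.72 (median 10.18), a 10.8-fold deficit (−3.43 ± 0.24, adjusted p 5.75e-16). Its line means climbed from 7.79 in pCO2 to 11.44 in pGL2 and 12.53 in pSUC2. AT5G04080 gave 4.93 and 4.68 against 5.95 to 11.47 (−3.39 ± 0.31), and AT1G67870 gave 9.86 and 9.95 against 11.20 to 14.74 (−3.35 ± 0.25). AT1G64370 fell by 3.16, AT4G00670 by 2.74, AT3G45160 by 2.68, AT1G73630 by 2.66 and GSTU23, a glutathione S-transferase, by 2.66. The glutaredoxin genes AT2G30540 and ROXY2, with values further down, complete the 10 largest falls. In 9 of these 10 genes pSUC2, pSultr2;2 and pGL2 were the 3 highest lines. The exception, AT3G45160, had its lowest mean outside pSCR in pSUC2 (9.21).

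CC-type glutaredoxins, small redox proteins that bind transcription factors, were grouped after their falls had been seen, so their count is a description. Of 17 measured loci 5 (29.4%) fell and 1 (5.88%) rose, against 2.4% and 2.39% of all probe sets, with a median of −0.32. AT2G30540 gave 5.27 and 5.13 against 5.75 to 11.11 (−2.63 ± 0.26), ROXY2 gave 5.53 and 5.41 against 6.57 to 10.62 (−2.55 ± 0.21), and AT3G62930 gave 4.85 and 4.74 against 5.47 to 10.14 (−2.43 ± 0.18). The pSUC2 line was highest for these 3, at 10.99, 10.45 and 10.10. Their nearest lines were far lower: pSHR for AT2G30540 (6.15 and 5.75), and pCO2 for ROXY2 (6.90 and 6.57) and AT3G62930 (5.63 and 5.47). AT4G15690 was at −1.16 ± 0.24, with 4.33 and 4.06 in pSCR beside 4.11 and 4.56 in pCO2. It was under the size limit with 50 added to linear values (−0.5), without the pSUC2 line (−0.83) and against p35S (−0.92). The riser, AT4G33040, was at 1.07 ± 0.16 and not called without replicate 2. Apart from AT1G06830, the fallen loci read between 4.06 and 5.53 in pSCR, below every array median, so these falls end in dim probe sets.

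The called sets had a shape across the other lines. For the 543 higher probe sets the median level was 9.15 in pSCR and between 6.78 (pPEP) and 7.66 (pWOL) in the others. The next-highest line was pCO2 in 166 of them, pWOL in 101 and pPEP in 98, and the lowest line was pPEP in 285. For the 545 lower probe sets the median was 7.07 in pSCR, 7.64 in pPEP, 7.84 in pCO2 and up to 9.20 in pSUC2. The highest line was pSUC2 in 253 of these and pRPL11C in 122, and pSCR was the lowest line in 370, beside 2247 of all probe sets (9.88%). The called sets also differed between total and polysomal RNA, in arrays outside the comparison. Total RNA of roots in air (4 arrays) lay above p35S polysomal RNA (3 arrays) in 42 of the 545 lower probe sets (7.71%), with a median gap of −0.99. It lay above p35S in 411 of the 543 higher ones (75.7%, median 0.36) and in 48.9% of all probe sets. Over the 22746 probe sets, which share arrays and are not independent, the difference of pSCR from the other lines correlated at 0.43 with total minus p35S. The same value was 0.38 for pCO2, 0.35 for pPEP and between −0.55 and −0.08 for the other 6 lines. The part of the RNA fraction in the falls and rises was not tested.

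Markers of other cell types were few among the named probe sets. None was called in the lists for root cortex (2 measured of 3), stele and xylem (1 of 21), phloem (2 of 18), non-hair epidermis (1 of 9), root hair (2 of 17), dividing cells (4 of 21) and photosynthesis (1 of 10), and the root cap list had 0 measured. AT1G09750, the locus of the cortex promoter pPEP, gave 7.39 and 7.86 in pSCR, and 10.25 on average in pPEP itself. AT1G62500, the locus of pCO2, was dim in every line, at 4.84 and 4.59 in pSCR. The stele gene LHW (8.62 and 8.90) and the phloem gene SWEET11 (8.04 and 7.27) were at −0.39 ± 0.17 and −0.70 ± 0.29. OPS, a phloem polarity gene, was at −1.0 ± 0.26, at the edge of the size limit. It was called lower in 15 of 38 alternatives, among them without the pPEP line (−1.12) and without pSCR replicate 1 (−1.08), so its place among the uncalled markers rests on the limit. The root hair expansins EXPA7 and EXPA18 were at 0.77 ± 0.19 (limma adjusted p 0.00224) and 0.67 ± 0.24, with means of 8.14 and 9.47 in pWOL. EXPA7 had its highest mean of the 9 lines in pSCR, at 8.35, and was above the size limit without pSCR replicate 2 (1.05). Division genes AUR1, AUR2, AUR3 and PRL differed by −0.10 to 0.27, and the photosynthesis gene RCA by −0.78 ± 0.24. RCA read 7.15 and 5.83 in pSCR and was called lower without replicate 1 (−1.44), but stood at −0.12 without replicate 2 (adjusted p 0.912). The 4 measured gibberellin genes of 21, GID1A, GID1B, GID1C and SLY1, were not called, at −0.68 to 0.53, and of the 25 ion and water transport genes 0 had a named probe set. As measures of RNA quality, the gap between the 3′ and 5′ actin probe sets was 5.94 and 6.24 in pSCR against 5.73 to 6.86 elsewhere. The GAPDH gap was 3.30 and 2.29 against 2.55 to 4.71, so pSCR replicate 2 had the smallest GAPDH gap.

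Which lines lie nearest to pSCR was asked by testing it against each of the 8 in turn. The fewest probe sets were called against pCO2, with 1091 (4.8% of those tested), and against pWOL, with 1103 (4.85%). Next came pSHR with 1402 (6.16%), pGL2 with 1454 (6.39%), pSultr2;2 with 1695 (7.45%) and pSUC2 with 1811 (7.96%). The most were called against pRPL11C, with 2286 (10.1%), and pPEP, with 2418 (10.6%). The order of pCO2 and pWOL is not firm, since the 2 counts exchange places when single arrays are left out. Without the size limit pWOL had fewer calls (1602) than pCO2 (2132). These 8 comparisons share the same 2 pSCR arrays. Against pWOL more probe sets were lower (648) than higher (455), and against pCO2 the split was even (568 higher, 523 lower).

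**Figure D4:**
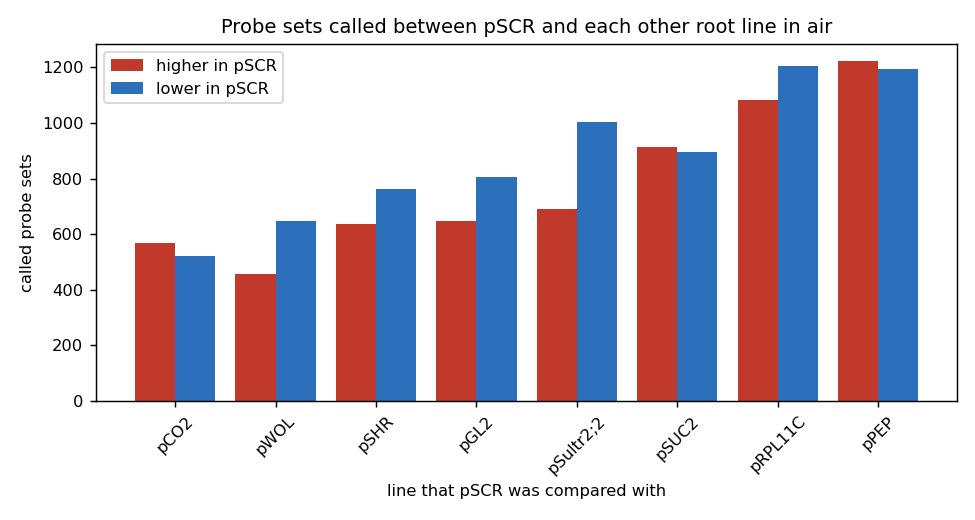
Number of probe sets (vertical axis, of 22746) called higher (red) or lower (blue) in pSCR when it is compared with each of the 8 other root lines in air. The bars run from 1091 calls in all against pCO2 to 2418 against pPEP.

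Being called against every single line was far more common for rises. It held for 263 probe sets upwards (1.16%) and 13 downwards (0.0572%), of which 140 and 8, respectively, carry 1 gene. The 263 had a median level of 9.58 in pSCR and of 7.36 in pCO2, the next-highest line for 102 of them. Of the 8 downward genes the 5 farthest below their nearest line were AT1G67870 (−1.72 from pCO2), ROXY2 (−1.26 from pCO2), AT3G01210 (−1.15 from pPEP), AT1G06830 (−1.14 from pCO2) and AT1G73630 (−1.11 from pSHR). AT3G01210 differed from the rest in being even across the other lines, at 8.01 to 8.58, against 6.72 and 6.99 in pSCR. The downward count moved with single arrays, to 20 and 21 without pSCR replicate 1 and 2 and to 7 without pPEP replicate 1.

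Arrays of the hypoxic seedlings give the same comparison over 7 lines, because pSultr2;2 has no hypoxia arrays. They come from the same lines as the air arrays. Their values did not enter the air differences, but they did enter the pooled spread behind the air calls. Under hypoxia 383 probe sets (1.68%) were higher and 298 (1.31%) lower in pSCR. Of the 543 higher in air 328 were called higher again, which is 60.4% of the air set and 85.6% of the hypoxia set, and 541 kept their sign. Of the 545 lower in air 219 were called lower again, 40.2% of the air set and 73.5% of the hypoxia set, and 538 kept their sign. All 6 measured Casparian strip genes were called in the same direction in both conditions. GSO1 gave 10.04 and 9.70 against 6.78 to 8.65 under hypoxia (2.1 ± 0.22), AT4G11290 11.24 and 10.63 against 6.00 to 8.04 (3.74 ± 0.26), and AT4G34600 8.36 and 8.08 against 7.92 to 10.35 (−1.11 ± 0.21). Of the 55 measured peroxidases 10 were higher and 1 was lower, against 1.68% and 1.31% of all probe sets. AT4G16270 was no longer called (0.99) and AT4G08780 was newly called. None of the 3 peroxidase falls in air was called again (PRXR1 −0.79, AT2G22420 −0.16, AT1G71695 −0.11), and the 1 lower member was AT5G15180 (−1.01). All 5 dirigent loci called in air were called again, joined by AT3G13650 (1.42). In the SHORTROOT and SCARECROW list only AT4G28100 (1.05) was called again, while SLY2 (0.83) and AT1G14580 (0.73) were not. From the quiescent centre and stem cell list neither BBM (0.66) nor AGL42 (0.72) was called under hypoxia. The gap between pSCR arrays seen in air was small under hypoxia, with a median of 0.07 between replicates 2 and 1 over the 543 probe sets. The higher count under hypoxia still depended on single arrays, and rose when hypoxia pSCR replicate 1 was left out.

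**Figure D5:**
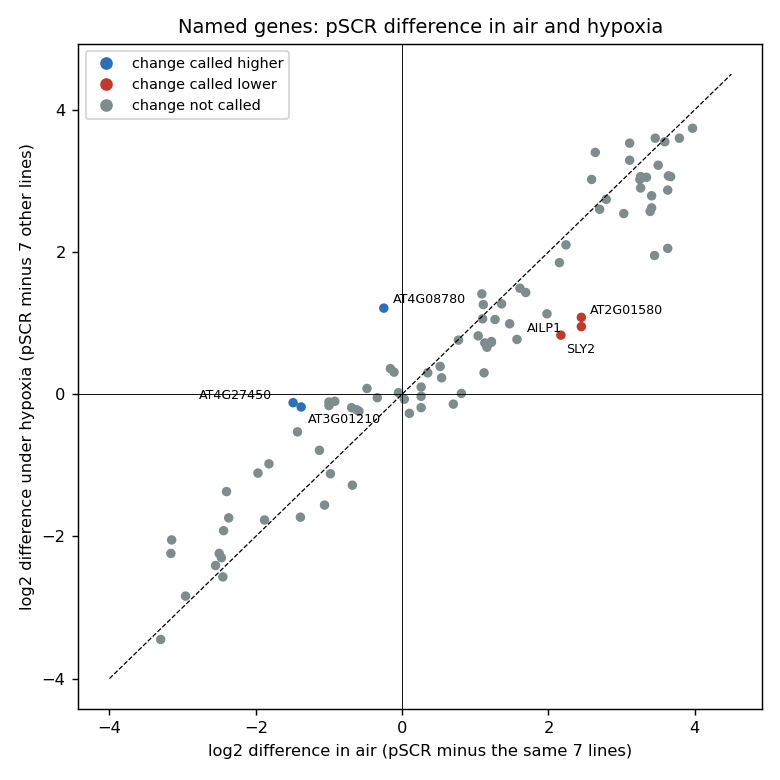
Log2 difference between pSCR and the mean of 7 other root lines in air (horizontal) and under hypoxia (vertical) for the named genes. The dashed line marks equal differences. Most genes lie near it, and the 6 labelled genes, coloured by direction, are those whose difference changed by the test between conditions.

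The change of the pSCR difference between conditions was itself tested over the same 7 lines. It was called higher in 12 probe sets (0.0528%) and lower in 16 (0.0703%), and 12 of these 28 carry 1 gene. All 16 probe sets with a lower change were higher in pSCR in air, beside 2.39% of all probe sets. Of the 12 with a higher change 7 were lower in pSCR in air, beside 2.4% of all. The same air arrays enter the air call and, with opposite sign, the change, so this overlap is partly built in and nothing is drawn from it. AT2G01580 stood at 10.42 and 10.35 in air and 9.14 and 9.00 under hypoxia in pSCR, while the other lines kept medians of 8.01 and 8.02, so its difference changed by −1.37 ± 0.30 (adjusted p 0.0253). AILP1 came to a lower difference by another route: its pSCR arrays read 10.00 and 10.95 in air and 10.99 and 11.14 under hypoxia, while the median of the others went from 8.14 to 10.35 (−1.5 ± 0.33, adjusted p 0.0295). SLY2 changed by −1.33 ± 0.29 (adjusted p 0.0246), which rests on its high air replicate 2, since the change was −0.38 without it (adjusted p 0.775).

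The 3 changes upwards were of different kinds. AT4G27450 was at 7.99 and 7.29 in pSCR in air, below most of the others, and at 13.02 and 13.24 under hypoxia, where the other lines read 12.88 to 13.58 (1.37 ± 0.25, adjusted p 0.0037). AT3G01210, low in pSCR in air, came to 7.96 and 7.99 under hypoxia, within the range of the others at 7.64 to 8.63 (1.20 ± 0.19, adjusted p 0.000415). The peroxidase AT4G08780 was not called in air (−0.22 ± 0.22) but gave 7.16 and 7.74 against 5.34 to 7.35 under hypoxia (1.46 ± 0.31, adjusted p 0.0216). It is a close relative and neighbour of Prx37, so signal shared between their probe sets is possible and was not tested. Of these 6 changes, AT3G01210 alone was called without each single pSCR array of either condition. In a fit to the 47 root arrays 4 of the 6 were not called, namely AT4G08780 (adjusted p 0.176), AILP1 (0.129), AT2G01580 (0.117) and SLY2 (0.176).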

How the data were processed

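The authors deposited log2 signals of 22810 ATH1 probe sets on 79 arrays, made with RMA and affy per the submitters' processing notes. Whether the arrays shared 1 normalization run is not given in the sources used here. Per the labels' protocols, 15 to 100 ng of RNA went through two-cycle cDNA synthesis. After removal of 64 AFFX controls, 22746 probe sets were tested without any further filter. Group means of all 79 arrays entered 1 limma fit (version 3.58.1, R 4.3.3; 43 residual and 4.48 prior degrees of freedom), which pools the spread over groups. Benjamini-Hochberg adjustment ran over all probe sets in each contrast. In simulated data for the air comparison, 48 of 50 rises of 1.5 and 49 of 50 rises of 2.0 (log2) were recovered, with 0 false calls. The simulation gave all arrays the same mean per probe set and independent noise. It held no shifts between lines or single arrays, so it does not measure false calls from these. The number of arrays limits the precision.

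Names come from the platform annotation matched to RefSeq (TAIR10.1): 13513 probe sets have 1 gene, 503 several and 8730 none. A listed gene with several probe sets was read from its brightest one. Named genes are measured members of the lists, called members of families, the 15 largest rises and 10 largest falls with separated arrays, the 10 farthest above and 5 farthest below every line, and the 3 largest changes each way. The members and lists were chosen with earlier results of these data known. Family lists by locus or synonym were added after the annotation was seen, and the glutaredoxins after their values were seen. Sequences were not used here.

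Like-numbered replicates were checked for pairing: deviations of replicate 1 from its line mean in pSCR were correlated with those in the other 8 lines. The value was 0.35 for pSHR, −0.06 for pRPL11C and −0.33 to −0.21 for the rest. Only 1 of 8 was over 0.1, so like numbers were not taken as pairs. The negative values show that replicate deviations were not unrelated between lines, and their source was not tested. Alternatives were fits to fewer arrays, other scalings, 50 added to linear values, dim probe sets left out, a variance trend, a replicate block, lines or arrays left out, a mean over the 17 arrays, p35S as reference and no size limit.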

Additional observations from a re-analysis of the deposited data

Results flagged for a closer look

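The following differences between conditions were picked out because the test of the change itself passed. The pSCR difference from the other lines changed upwards under hypoxia in 12 probe sets and downwards in 16. Among the named genes the change was 1.46 for AT4G08780, 1.37 for AT4G27450 and 1.20 for AT3G01210, and −1.5 for AILP1, −1.37 for AT2G01580 and −1.33 for SLY2. In a fit to the 47 root arrays 4 of the 6 lost their call: AT4G08780 (adjusted p 0.176), AILP1 (0.129), AT2G01580 (0.117) and SLY2 (0.176). With 50 added to linear values AT3G01210 (0.93) and SLY2 (−0.96) were under the size limit. The cause of these changes was not tested.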

How the results depend on the processing

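Among the named genes, 3607 values under single alternatives kept sign and side of the threshold, 84 lost the call and 28 gained it. Another 17, of 8 genes called neither before nor after, changed sign at 2 decimals. A change of sign with a call on at least 1 side was seen for AT1G09750 (1.67), AT4G36430 (−0.04) and AT4G11210 (−0.03), each with p35S as reference. Against p35S the air counts were 1047 higher and 971 lower. With no minimum difference they were 1213 and 1617, under hypoxia 858 and 826, and 50 probe sets were lower than in all 8 lines. The single-line totals then were 2132 (pCO2), 2899 (pGL2), 4380 (pPEP), 4018 (pRPL11C), 2229 (pSHR), 3009 (pSUC2), 2698 (pSultr2;2) and 1602 (pWOL), so pWOL then had the fewest. With 50 added to linear values, which shrinks differences of dim probe sets, the lower counts were 341 in air, 171 under hypoxia and 3 against all 8 lines. The single-line totals were 668 (pCO2), 967 (pGL2), 1611 (pPEP), 1468 (pRPL11C), 897 (pSHR), 1312 (pSUC2), 1132 (pSultr2;2) and 742 (pWOL). The change between conditions was called for 5 higher and 3 lower without dim probe sets, and 5 and 6 in the 47 root arrays alone. With a replicate block it was 15 and 28, and the block gave 548 and 552 in air and 386 and 304 under hypoxia. Leaving out single arrays gave 7 (without hypoxia pSCR replicate 2) to 30 (without replicate 1) higher changes, and 8 (without air pSCR replicate 2) to 43 (without replicate 1) lower ones. Lower than in all 8 lines were 7 (without pPEP replicate 1) to 21 (without pSCR replicate 2). The air counts then ran from 442 to 681 and from 522 to 576. Except where the setting itself sets the count, the cause was not tested.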
